A study of Mus musculus with 4 samples.

Results

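Respiratory complexes II to V are the inner mitochondrial membrane machines that follow complex I in oxidative phosphorylation. Their genes were taken as the probe sets that the platform annotation assigns to a single gene with a symbol of the succinate dehydrogenase subunits Sdha to Sdhd (complex II), the Uqcr family and Cyc1 (complex III), the families Cox4 to Cox8 (complex IV) or the Atp5 family (complex V). Cox8b and Cox7a1 were left out of the members, and they serve below as isoform partners. The rule found 90 of the 45101 probe sets on the array. They read 45 of 18193 measured genes, of which 4 belong to complex II, 9 to complex III, 15 to complex IV and 17 to complex V. Each gene was read from its probe set with the highest mean log2 signal, and 44 of the 45 genes passed the filter on dim signals. Cox7b2, a testis-enriched isoform of a complex IV subunit, did not. Its signals were 3.65 and 9.44 in normal ureter and 25.5 and 4.08 in the tumors.

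The series compared normal ureter (2 arrays) with ureter tumor (2 arrays) on one-colour Affymetrix mouse arrays, with total RNA from ureter epithelium of C57Bl/6 mice aged 6 to 8 weeks. All 4 samples carry the same protocol text, in which mice with rtTA at R26, a teto-Cre transgene and floxed Ncstn alleles (Ncstn f/f) received doxycycline for 1 week from an age of 3 weeks. The labels do not give a genotype for each sample or the number of animals behind one, and they state no cell type to which recombination was limited. The samples are called biological replicates without naming animals, so p-values measure only the spread between these samples. Ncstn, which encodes the gamma-secretase subunit nicastrin, read 99.0 and 66.2 in normal ureter and 81.6 and 131 in the tumors, which overlap. Where its probe set lies relative to the floxed part was not analysed here.

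In the respiratory chain, complex II passes electrons from succinate to ubiquinone, complex III passes them on to cytochrome c, and complex IV hands them to oxygen. Complexes III and IV pump protons as they do so, and complex V, the ATP synthase, lets the protons flow back and makes ATP. Apart from complex II, each of these complexes also holds subunits encoded by mitochondrial DNA. The members here are encoded in the nucleus. In a tissue, their transcripts tend to follow its content of mitochondria, which is high in brown fat, heart, muscle and kidney tubule.

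Complex II to V transcripts were mostly lower in signal in the tumors than in normal ureter, and none passed the test. Over the 44 genes tested, the median difference between tumor and normal was −1.0 on the scale of log2(signal + 16), which is 49.9% of the normal signal, beside a median of 0.03 over all 13046 genes tested. By gene the differences ran from −1.83 for Sdha to 0.45 for Atp5g1. In 38 of the 44 genes both tumor arrays lay below both normal arrays, where 27.7% of all genes tested did so. Cox6b2 alone was higher on both tumor arrays, where 29.4% of all genes were, and Sdhc, Cox6a2, Atp5g1, Atp5h and Atp5md overlapped between the groups. The difference was under −1 in 22 members, against 10.9% of all genes.

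The limma test, adjusted by Benjamini-Hochberg over all 13046 genes, called 0 members at 0.05, while it called 1.43% of all genes. The smallest adjusted p of a member was 0.0714, for Uqcrc1. At an unadjusted p under 0.05, 22 members were lower and 0 higher, where 10.9% of all genes were lower and 10.6% higher. Calls appeared when 1 tumor array was left out. Without tumor replicate 1 the fit called 26 members lower and 1 higher (27 in all) with 32.9% of all genes called, and without tumor replicate 2 it called 38 lower with 42.2% of all genes called. In both of those fits the lone tumor array is assumed to vary like the normal pair.

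**Figure D1:**
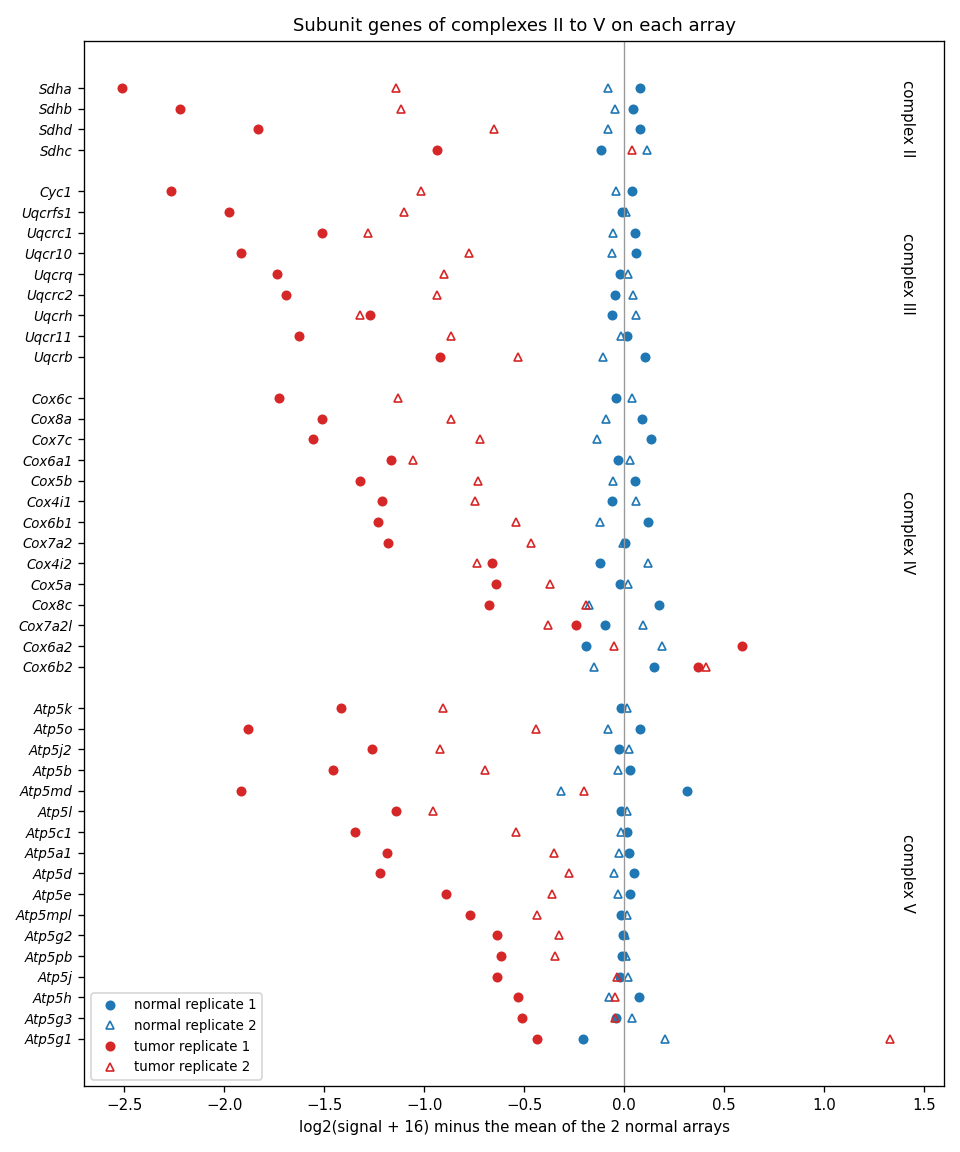
For each of the 44 tested members (rows, grouped by complex), the points give log2(signal + 16) on each array minus the mean of the 2 normal arrays. The normal arrays lie close to 0, tumor replicate 1 lies furthest to the left in most rows, and Atp5g1 on tumor replicate 2 is the point furthest to the right.

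The gap between the tumor arrays was wide. Over the members, the median absolute gap was 0.62 for the tumor pair and 0.09 for the normal pair, and it was not taken over all genes. Tumor replicate 2 had the higher signal in 40 of the 44 members (all but Uqcrh, Cox4i2, Cox6a2 and Cox7a2l), beside 6363 of all 13046 genes tested. It was also the higher tumor array in 29 of 33 tested complex I subunits and 60 of 76 mitochondrial ribosomal proteins. The members' median difference from the normal mean was −1.23 on tumor replicate 1 and −0.59 on tumor replicate 2. By complex the medians on tumor replicates 1 and 2 were −2.03 and −0.88 for complex II, −1.69 and −0.94 for complex III, −1.17 and −0.63 for complex IV, and −1.14 and −0.35 for complex V. The order II, III, IV, V held on tumor replicate 1. On tumor replicate 2, complex III had a lower median than complex II.

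Promoters of respiratory chain genes are known to share control elements, and the members' promoters were read from RefSeq on the build GRCm38.p6 as the 250 bases before each transcription start. Windows were found for 33 of the 45 genes, 36 windows in all. NRF-1, GABP (also called NRF-2), the estrogen-related receptors (ERR) and YY1 are transcription factors known to act at promoters of respiratory chain genes. A core of each was searched on both strands: GCATGCGC for NRF-1, CCGGAAG for GABP and other ETS factors, AAGGTCA for ERR and AAGATGGC for YY1. The NRF-1 core overlaps its own reverse complement, and a window was counted once however many matches it held. The NRF-1 core stood in 5 member windows (13.9%, against 2.26% of all 32851 windows), those of Sdhb, Cox6a1, Atp5g2, Atp5k and Atp5l. The GABP core stood in 9 (25%, against 6.91%), those of Sdhd, Uqcrh, Uqcr11, Cox6a1, Cox6b1, Atp5e, Atp5h, Atp5j and Atp5l. The ERR core stood in 2 (5.56%, against 4.08%) and the YY1 core in 1 (2.78%, against 1.56%). No match says only that these letters are not in this window. The following windows show an NRF-1 core (Sdhb and Atp5k), a GABP core (Uqcr11), both (Cox6a1), and none of the 4 cores in the member with the highest difference (Atp5g1). They are written from 5′ to 3′ on the strand of the gene, and capitals mark the matched cores on either strand.
Sdhb (chr4:140961021-140961270, plus strand): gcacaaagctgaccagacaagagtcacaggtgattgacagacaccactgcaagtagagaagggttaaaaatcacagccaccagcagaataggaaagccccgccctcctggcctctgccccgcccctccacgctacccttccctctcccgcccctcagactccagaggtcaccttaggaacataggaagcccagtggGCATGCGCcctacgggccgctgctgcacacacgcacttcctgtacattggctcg
Uqcr11 (chr10:80406822-80407071, minus strand): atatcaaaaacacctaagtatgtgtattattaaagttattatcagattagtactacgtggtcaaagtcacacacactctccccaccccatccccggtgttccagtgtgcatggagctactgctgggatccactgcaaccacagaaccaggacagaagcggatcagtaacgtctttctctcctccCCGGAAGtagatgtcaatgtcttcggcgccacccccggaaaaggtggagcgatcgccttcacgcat
Cox6a1 (chr5:115348959-115349208, minus strand): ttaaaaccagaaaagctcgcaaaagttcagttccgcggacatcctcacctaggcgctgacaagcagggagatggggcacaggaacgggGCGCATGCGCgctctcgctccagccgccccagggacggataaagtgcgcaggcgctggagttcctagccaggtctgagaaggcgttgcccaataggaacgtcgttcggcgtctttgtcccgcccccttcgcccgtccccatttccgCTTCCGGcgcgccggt
Atp5k (chr5:108434400-108434649, minus strand): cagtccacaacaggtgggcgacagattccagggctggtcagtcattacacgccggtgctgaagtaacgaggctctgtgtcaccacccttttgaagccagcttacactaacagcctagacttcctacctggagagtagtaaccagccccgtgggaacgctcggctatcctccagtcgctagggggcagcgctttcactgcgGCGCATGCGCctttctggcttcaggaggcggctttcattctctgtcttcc
Atp5g1 (chr11:96075632-96075881, minus strand): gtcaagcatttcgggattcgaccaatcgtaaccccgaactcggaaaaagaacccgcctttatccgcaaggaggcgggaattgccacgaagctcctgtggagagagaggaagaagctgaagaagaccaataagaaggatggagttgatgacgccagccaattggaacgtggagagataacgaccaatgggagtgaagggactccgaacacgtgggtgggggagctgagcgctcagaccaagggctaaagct

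Differences in the genes with an NRF-1 core ran from −1.67 (Sdhb) to −0.48 (Atp5g2), and in those with a GABP core from −1.30 (Uqcrh) to −0.29 (Atp5h). The members without any of these cores covered the whole range, from Sdha at −1.83 to Atp5g1 at 0.45.

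Complex II, which is also the succinate dehydrogenase of the citric acid cycle, had a median difference of −1.45, the lowest of the 4 complexes with 1 probe set a gene. With the mean of all probe sets of a gene it was −0.99, above the −1.25 of complex III. Sdha carries the flavin that oxidises succinate, and it read 23046 and 20689 on normal replicates 1 and 2 and 3821 and 9885 on tumor replicates 1 and 2. Both tumor arrays lay far below both normal arrays, with a difference of −1.83 ± 0.51 (SE, 2 arrays a group; limma adjusted p = 0.171). All 3 of its tested probe sets were lower in the tumors. Sdhb holds the iron-sulfur clusters, and its promoter carries the NRF-1 core shown above. It read 26112 and 24610 in normal ureter and 5426 and 11703 in the tumors, a difference of −1.67 ± 0.43 (limma adjusted p = 0.154).

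The membrane anchors Sdhc and Sdhd bind ubiquinone and heme, and their values differed more from each other. Sdhd read 9060 and 8107 in normal ureter and 2396 and 5461 in the tumors, with a difference of −1.24 ± 0.45 (limma adjusted p = 0.230). Its second probe set, at 954 and 795 against 594 and 1016, overlapped between the groups. Sdhc read 2791 and 3266 against 1573 and 3105. Here tumor replicate 2 lay between the normal arrays, and the difference of −0.45 ± 0.38 (limma adjusted p = 0.552) came to 0.040 without tumor replicate 1. Its other probe set, at 963 on both normal arrays and 341 and 798 in the tumors, was lower on both tumor arrays.

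Complex III was the complex in which all 9 genes were lower on both tumor arrays, and 8 of them had a limma unadjusted p under 0.05. Of all genes tested, 27.7% were lower on both tumor arrays and 10.9% were lower at that limma p. The median difference was −1.32. Its redox subunits were Cyc1 (cytochrome c1) and Uqcrfs1 (the Rieske iron-sulfur protein). Cyc1 read 20222 and 19099 in normal ureter and 4069 and 9707 in the tumors, a difference of −1.64 ± 0.47 (limma adjusted p = 0.175). Uqcrfs1 read 16701 and 16898 against 4259 and 7813, a difference of −1.54 ± 0.35 (limma adjusted p = 0.130). In both genes tumor replicate 1 was the lowest array.

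Uqcrc1 and Uqcrc2 are the core proteins, related to mitochondrial processing peptidases. Uqcrc1 read 18959 and 17576 in normal ureter and 6392 and 7505 in the tumors. Its tumor arrays lay close together, and with a difference of −1.40 ± 0.20 it had the smallest adjusted p of all members (limma, 0.0714), which missed the threshold. Uqcrc2 read 24410 and 26051 against 7784 and 13159, with a difference of −1.32 ± 0.33 (limma adjusted p = 0.146).

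The 5 small subunits of complex III had differences from −1.35 to −0.73. The hinge protein Uqcrh, which helps cytochrome c1 and cytochrome c meet, read 36168 and 39355 in normal ureter and 15647 and 15073 in the tumors. Like Uqcrc1, it was close on both tumor arrays, and its difference was −1.30 ± 0.21 (limma adjusted p = 0.0843). Uqcr11, whose promoter with a GABP core is shown above, read 20146 and 19729 against 6456 and 10914, a difference of −1.25 ± 0.32 (limma adjusted p = 0.154). Uqcr10 and Uqcrq lay near it, at −1.35 and −1.32. Uqcrb, a subunit beside the quinone site, was the least separated of the 9, at 78255 and 67649 against 38478 and 50318, with a difference of −0.73 ± 0.30 (limma adjusted p = 0.272).

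Complex IV (cytochrome c oxidase) has broadly expressed subunits and isoforms of particular tissues. Its 9 broadly expressed subunits, Cox4i1, Cox5a, Cox5b, Cox6a1, Cox6b1, Cox6c, Cox7a2, Cox7c and Cox8a, were all lower on both tumor arrays, with a median difference of −1.03. Over all genes tested, 27.7% were lower on both. The 4 tested isoforms known from particular tissues, Cox4i2, Cox6a2, Cox6b2 and Cox8c, went both ways. Cox4i2 and Cox8c were lower on both tumor arrays, at −0.70 and −0.43, and Cox6a2 and Cox6b2 had differences of 0.27 and 0.39. Cox8c was nearly level on tumor replicate 2 (236) and normal replicate 2 (238), and its other probe set, under the filter, overlapped between the groups. Their signals were dim, at mean signals from 83.9 to 231. This grouping was made after the values were known and has no test.

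Cox6c, which has no isoform partner, was read by probe sets that differed in size. The one used read 51921 and 54792 in normal ureter and 16122 and 24361 in the tumors, a difference of −1.43 ± 0.31 (limma adjusted p = 0.122), and the other read 14091 and 19874 against 11534 and 13750, a difference of −0.41. With the mean of its probe sets Cox6c stood at −0.92. Cox5b, a zinc-binding subunit near the catalytic core, read 49234 and 45699 against 18952 and 28561. Its difference was −1.03 ± 0.31 (limma adjusted p = 0.181), and all 5 of its tested probe sets were lower in the tumors. Cox5a, a subunit on the matrix side, read 32248 and 33214 against 21021 and 25300, a difference of −0.50 ± 0.23 (limma adjusted p = 0.310), and −0.68 with the mean of its probe sets. Cox7c was read at a low signal, with 547 and 450 in normal ureter and 158 and 295 in the tumors (−1.14 ± 0.39, limma adjusted p = 0.211).

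Isoform pairs of one subunit give a comparison within each array, in which a scaling factor common to an array drops out except near the pseudocount. Cox4i1 is the broad form of the largest nuclear-encoded subunit and Cox4i2 its oxygen-regulated form, best known in lung. Cox4i1 read 40323 and 43739 in normal ureter and 18119 and 25010 in the tumors. Cox4i2 read 102 and 124 against 65.4 and 61.2. Their differences were −0.98 and −0.70, and the log2 ratio of the pair overlapped between the groups. Neither passed the test (limma adjusted p of 0.171 and 0.331).

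In subunit 6a, Cox6a1 is the liver form and Cox6a2 the heart and muscle form. Cox6a1 read 85293 and 88640 in normal ureter and 38733 and 41871 in the tumors, a difference of −1.11 ± 0.26 (limma adjusted p = 0.137). Cox6a2 read 63.6 and 87.9 against 121 and 72.0, which overlap. Its difference of 0.27 ± 0.42 (limma adjusted p = 0.751) came to −0.048 without tumor replicate 1. Measured from its normal mean, the log2 ratio of Cox6a1 over Cox6a2 was −1.76 on tumor replicate 1 and −1.01 on tumor replicate 2, and both lay below the normal arrays. Cox6a2 was dim, close to the filter signal of 54.65, and most of this shift is the difference of Cox6a1 itself.

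Subunit 6b showed the same order of signs. Cox6b1, the broad form, read 55349 and 46979 in normal ureter and 21692 and 35048 in the tumors, a difference of −0.89 ± 0.34 (limma adjusted p = 0.252). Cox6b2, the testis form, was also dim and read 165 and 131 against 196 and 201. It was the one member higher on both tumor arrays, by 0.39 ± 0.30 (limma adjusted p = 0.507).

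Subunits 7a and 8 have forms of heart, muscle and brown fat, Cox7a1 and Cox8b, which are not members. Cox8b read 36514 and 31248 in normal ureter and 110 and 29.9 in the tumors, and it fell by the limma test (adjusted p = 0.0369). The size of that fall depends on the pseudocount, since its tumor signals are dim: the difference was −9.17 with a pseudocount of 1, −8.80 with 16 and −8.05 with 64. Its broad partner Cox8a read 21660 and 19139 against 7128 and 11183, a difference of −1.19 ± 0.30 (limma adjusted p = 0.149). Cox7a1 read 6947 and 7450 against 64.5 and 740, with differences from −5.03 to −4.50 over these pseudocounts (limma adjusted p = 0.135 with 16). Cox7a2, the broad partner of Cox7a1, read 46202 and 45975 against 20307 and 33396, a difference of −0.82 ± 0.34 (limma adjusted p = 0.270). The log2 ratio of broad to restricted form was thus higher on both tumor arrays, by 3.68 to 4.21 for Cox7a2 over Cox7a1 and by 6.87 to 7.98 for Cox8a over Cox8b, over the same pseudocounts. Cox8c, a testis form, read 309 and 238 against 164 and 236, and its pair with Cox8a moved by −0.76.

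**Figure D2:**
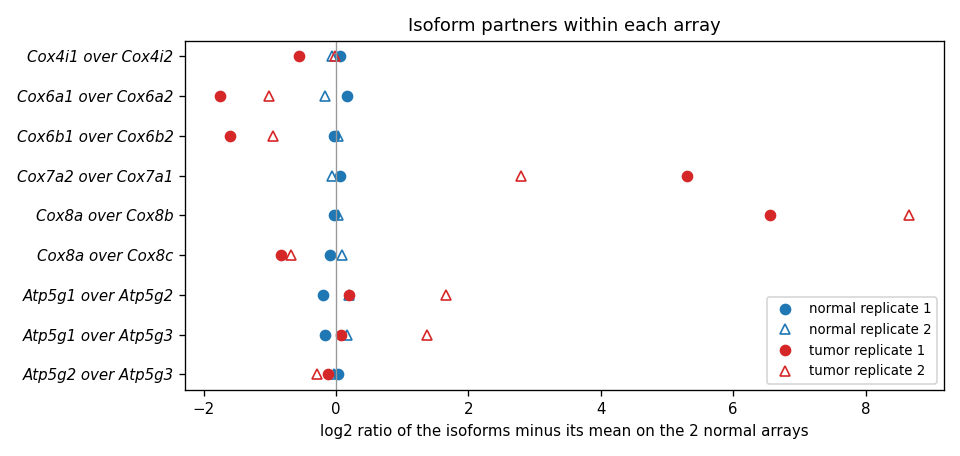
Each row is a pair of isoforms of one subunit, and the points give the log2 ratio of the first over the second isoform on each array, minus its mean on the 2 normal arrays. The pairs with Cox7a1 and Cox8b lie to the right on both tumor arrays, those of Cox6a and Cox6b lie to the left, and on tumor replicate 1 Atp5g1 over Atp5g2 is level with a normal array.

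Cox7a2l, a relative of subunit 7a known as a factor of supercomplexes of complexes III and IV, gave no settled direction. Its probe set with the highest mean read 6277 and 7185 in normal ureter and 5689 and 5154 in the tumors (−0.31 ± 0.19, limma adjusted p = 0.405). The suffix of that probe set stands for probes that can match other transcripts. Without such probe sets the gene was read at 0.11, from 5401 and 6127 against 6940 and 5571. Its remaining probe set, which also lacks that suffix, read 4959 and 5922 against 4673 and 4234. That one was lower on both tumor arrays, by a difference of −0.28. Cox7b was not analysed here.

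Complex V had the median nearest to 0 of the 4 complexes (−0.75). Of its 17 genes, 14 were lower on both tumor arrays, where 27.7% of all genes tested were. The F1 head, where ATP is made, is built of Atp5a1 and Atp5b (the alpha and beta subunits) around a stalk of Atp5c1, Atp5d and Atp5e (gamma, delta and epsilon). All 5 were lower on both tumor arrays, with differences from −1.08 to −0.63. Atp5b, the catalytic subunit, read 40335 and 38766 in normal ureter and 14426 and 24381 in the tumors, a difference of −1.08 ± 0.34 (limma adjusted p = 0.195). Atp5a1 read 26634 and 25669 against 11466 and 20540 (−0.77 ± 0.36, limma adjusted p = 0.308). Its other bright probe set had a difference of −1.13 and its dim one of 0.36, from 344 and 362 against 297 and 701.

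The peripheral stalk holds the head still while the rotor turns. Its members Atp5pb, Atp5h and Atp5j (subunits b, d and F6) had differences of −0.48, −0.29 and −0.33. The other probe set of Atp5h, at 21613 and 21122 against 11652 and 15411, was lower on both tumor arrays, by a difference of −0.67. Atp5o, the oligomycin sensitivity protein that caps the stalk, read 20427 and 18277 in normal ureter and 5225 and 14236 in the tumors. Its tumor arrays were far apart, and the difference was −1.16 ± 0.54 (limma adjusted p = 0.308). The other probe set of Atp5o read 3470 and 3536 against 2177 and 4741, which overlap, with a difference of −0.12.

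The c ring is the rotor that protons turn, and Atp5g1, Atp5g2 and Atp5g3 encode the same mature c subunit with different import signals. Atp5g1 read 2946 and 3908 in normal ureter and 2504 and 8566 in the tumors. Tumor replicate 1 lay below both normal arrays and tumor replicate 2 above both. The difference of 0.45 ± 0.65 (limma adjusted p = 0.733) came to −0.44 without tumor replicate 2 and to 1.33 without tumor replicate 1, where it was the one member called higher. Atp5g2 read 8202 and 8269 against 5287 and 6566, lower on both tumor arrays (−0.48 ± 0.20, limma adjusted p = 0.273). Atp5g3, read at 33851 and 35687 against 24396 and 33737, had tumor replicate 2 just below the normal arrays (−0.28 ± 0.28, limma adjusted p = 0.608). Measured from its normal mean, the log2 ratio of Atp5g1 over Atp5g2 was 0.20 on tumor replicate 1, level with normal replicate 2 (0.20), and 1.66 on tumor replicate 2. That of Atp5g1 over Atp5g3 was 0.07 and 1.37 and overlapped with the normal arrays.

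The small membrane subunits, of which several sit where ATP synthases pair up in rows, had a median of −1.06, near that of the broad subunits of complex IV. Atp5l (subunit g) read 22601 and 23142 in normal ureter and 10365 and 11795 in the tumors. It had the smallest adjusted p of complex V, at a difference of −1.05 ± 0.20 (limma adjusted p = 0.104). Atp5k (subunit e), whose promoter holds an NRF-1 core, read 24580 and 25143 against 9294 and 13243, a difference of −1.16 ± 0.26 (limma adjusted p = 0.129). Atp5j2 (subunit f) read 30461 and 31633 against 12943 and 16412 (−1.09 ± 0.24, limma adjusted p = 0.124). These 3 were clear of the normal arrays on both tumor arrays. Atp5mpl had a difference of −0.60, and Atp5md (also called DAPIT) overlapped, at 9303 and 6003 against 1970 and 6499.

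Of the 90 probe sets, 79 passed the filter. Among these 68 were lower on both tumor arrays, where 29.3% of all 22951 probe sets tested were, 1 was higher, where 27.3% were, and 10 overlapped. Of the 25 genes with several tested probe sets, Cox7a2l and Atp5a1 had probe sets that pointed both ways. Since 12 genes were read by probe sets with the suffix _s_at or _x_at, which stands for probes that can match other transcripts, related sequences can add to those signals.

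Members were bright on these arrays, and they were also set beside other bright genes. The median signal was 13211 over members and 554 over all genes tested. Signals of different probe sets depend on their probes, so this describes the measurement and not the amount of transcript. The 382 other genes tested that were brighter than the lower quartile of the members had a median difference of −0.13. Of these 382, 142 were lower on both tumor arrays, a larger share than the 27.7% of all genes tested.

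The parts of the mitochondrion most like these complexes had values on either side. The 33 tested subunits of complex I had a median difference of −1.11, with 0 called and 31 lower on both tumor arrays. Over all genes tested, 1.43% were called and 27.7% were lower on both tumor arrays. The members' median lay above that of complex I by 0.19 on tumor replicate 1 and 0.12 on tumor replicate 2. The 76 mitochondrial ribosomal proteins, which translate the subunits encoded by mitochondrial DNA, had a median of −0.47, with 0 called and 56 lower on both tumor arrays. Against them the members' median was lower by a difference of −0.65 and −0.24 on the tumor replicates. These differences between groups of genes have no test.

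Among the other genes of oxidative metabolism, few passed the test, which called 1.43% of all genes. Of 13 citric acid cycle genes tested, 1 fell and 0 rose by the limma test, with a median of −1.45. Sucla2, the ATP-forming subunit of succinyl-CoA synthetase, which makes the succinate that complex II uses, read 22784 and 21558 in normal ureter and 4250 and 5727 in the tumors and fell by 2.16 ± 0.23 (limma adjusted p = 0.0487). Citrate synthase (Cs), which starts the cycle, read 22444 and 20097 against 7265 and 8346 (−1.45 ± 0.20, limma adjusted p = 0.0690). Malate dehydrogenase (Mdh2) had a difference of −0.51.

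Of the 10 carriers of electrons and adenine nucleotides, none was called and the median was −0.48. Etfa and Etfdh, which feed electrons from fatty acid oxidation to ubiquinone, had differences of −2.57 ± 0.44 and −2.36 ± 0.40 (limma adjusted p of 0.0889 and 0.0895). Etfa read 22212 and 21498 in normal ureter and 2462 and 5470 in the tumors. Cytochrome c (Cycs), the carrier between complexes III and IV, read 34739 and 34610 against 11424 and 27793 (−0.96 ± 0.49, limma adjusted p = 0.346). The differences of Etfa and Etfdh were thus below that of any member, and that of cytochrome c was close to the members' median.

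Assembly factors build the complexes without being part of them. Of 36 tested, 1 fell and 0 rose, and the median was −0.36. Atpaf2, the chaperone of the alpha subunit of the F1 head, read 1134 and 1111 in normal ureter and 273 and 294 in the tumors and fell by 1.93 ± 0.21 (limma adjusted p = 0.0481). Sdhaf3, an assembly factor of the iron-sulfur subunit of complex II, had a difference of −0.97 (limma adjusted p = 0.120), and the copper chaperone of complex IV, Cox17, one of −0.80 (limma adjusted p = 0.122).

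The 15 regulators of mitochondrial biogenesis had a median of −0.01, with 0 called. Ppargc1b, a coactivator, had a difference of −1.53 ± 0.39 (limma adjusted p = 0.150), and Tfb2m, a transcription factor of mitochondrial DNA, one of −0.57. Ppargc1a, the coactivator induced by cold and exercise, read 1899 and 1713 in normal ureter and 265 and 2913 in the tumors, so that the normal arrays lay between the tumor arrays. The genes of the factors whose cores were searched had differences of −0.16 (Nrf1), 0.01 (Gabpa), −0.01 (Gabpb1), −0.33 (Esrra), 0.21 (Esrrb), 0.01 (Esrrg) and 0.29 (Yy1), with limma adjusted p from 0.487 to 0.997. Esrrg read 477 and 360 against 94.4 and 1696, with the tumor arrays on either side of normal as for Ppargc1a. Nfe2l2 read −0.28. The 6 subunits of complexes III to V that mitochondrial DNA encodes had no single-gene probe set named here and were not analysed.

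**Figure D3:**
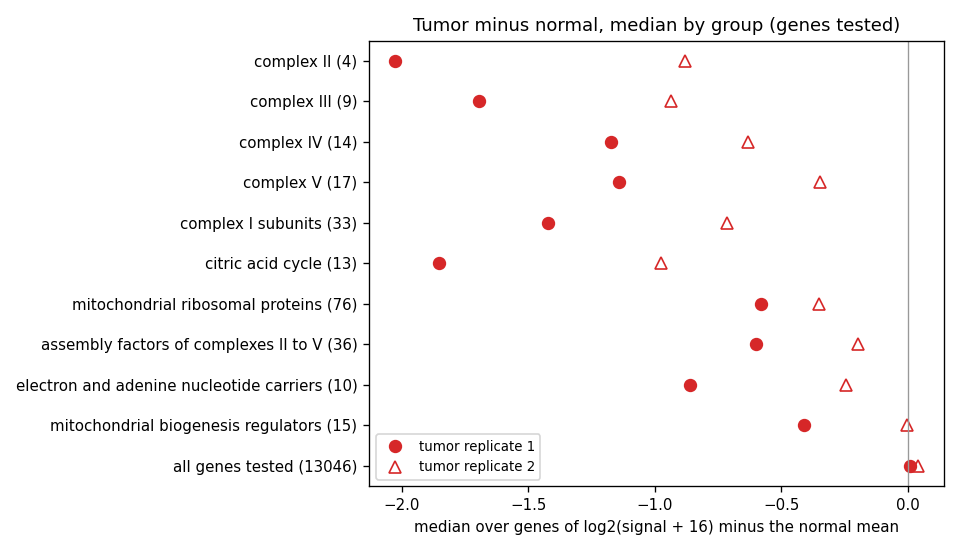
For each gene group (number of genes tested in parentheses), the points give the median over genes of log2(signal + 16) minus the normal mean, on tumor replicates 1 and 2. Complex II lies furthest to the left on tumor replicate 1, all groups shown have the lower median on tumor replicate 1, and all genes tested lie close to 0.

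Markers of cells other than urothelium, several of which are rich in mitochondria, differed between the groups along with the members. In bulk tissue, fewer cells of a type and less RNA per cell cannot be told apart. The 9 measured brown fat markers summed to 100168 and 91782 in normal ureter and 3014 and 4346 in the tumors. Of the 8 tested, 3 fell (Ucp1, Cox8b and Otop1), beside 123 of all 13046 genes tested. For Otop1 the limma adjusted p was 0.0496, just under the threshold. The median of the list was −4.56, and it ran from −4.89 to −3.94 over the pseudocounts above. On both tumor arrays 6 were lower, where 27.7% of all genes tested were, and 2 overlapped between the groups. Those were Dio2, at 861 and 1006 against 2354 and 610, and Ppargc1a, at 1899 and 1713 against 265 and 2913. Ucp1, the uncoupling protein that lets protons bypass complex V, read 19660 and 21580 against 3.15 and 3.41 (limma adjusted p = 0.00863) and was thus near 0 in the tumors. The 8 fat cell markers summed to 256978 and 271355 against 40520 and 6999, and 1 fell (Pnpla2, −3.50, limma adjusted p = 0.0369), with a median of −4.11. The brightest of them, Fabp4, read 105906 and 124150 against 25536 and 6072. Smooth muscle markers summed to 58644 and 47107 against 17322 and 27175, and of 8 tested 1 fell (Myh11, −3.37, limma adjusted p = 0.0402). Between the tumor arrays these lists did not move like the members. Tumor replicate 2 was the higher one in 0 of 8 fat cell, 4 of 8 brown fat and 4 of 8 smooth muscle markers tested, and in 40 of 44 members. The part of these cells in the members' differences was not tested.

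All 10 proximal tubule markers tested were higher on tumor replicate 2 than on tumor replicate 1, as were all 6 of the loop of Henle and distal nephron. The 10 proximal tubule markers summed to 33431 and 57289 in normal ureter, 8455 on tumor replicate 1 and 94182 on tumor replicate 2. Much of these sums came from the brightest marker, Kap, at 16792 and 41745 against 101 and 52269. Gatm, with the smallest p of that list, was nearly level between the tumor arrays and above normal on both. It read 2082 and 1826 against 3005 and 3247 (limma adjusted p = 0.156). For the 6 markers of the loop of Henle and distal nephron the sums were 10764 and 16624 in normal ureter, and 1444 and 111019 on the tumor replicates. Umod, which encodes uromodulin of the thick ascending limb, read 4997 and 9982 against 1268 and 57258. None of the markers on either list passed the test. On tumor replicate 2 the median difference from the normal mean was 1.48 for the proximal list and 2.83 for the distal one. It was −0.59 for the members, which stayed below normal there. On tumor replicate 1 these medians were −3.56, −3.64 and −1.23. Members were higher on tumor replicate 2 than on tumor replicate 1 in 40 of 44 cases, and the part of kidney RNA in that gap was not tested.

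The markers of the labelled tissue were measured in both groups. The 12 urothelial markers summed to 74035 and 116721 in normal ureter and 60074 and 35099 in the tumors. Of the 12, 3 fell, beside 123 of all 13046 genes tested. The 3 were Upk3a, Upk1b and Krt20 (limma adjusted p of 0.0369, 0.0425 and 0.0420), all known from the superficial layers of urothelium. On both tumor arrays 8 were lower and 1 was higher, where 27.7% and 29.4% of all genes tested were. The higher one was Cdh1, at 5777 and 6945 against 13206 and 9908 (0.85, limma adjusted p = 0.174). Krt5 overlapped, at 3415 and 5518 against 15780 and 628. Krt7, a keratin of the whole urothelium, read 14089 and 23467 against 19322 and 6708. As signs of RNA quality, the ratio of 3′ to 5′ control signal for Gapdh was 0.920 and 0.923 in normal ureter and 1.51 and 1.44 in the tumors, and for Actb 2.90 and 2.82 against 2.47 and 2.63. Its part in the members' differences was not tested. Median signals were 107 and 103 in normal ureter and 85.0 and 94.2 in the tumors.

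**Figure D4:**
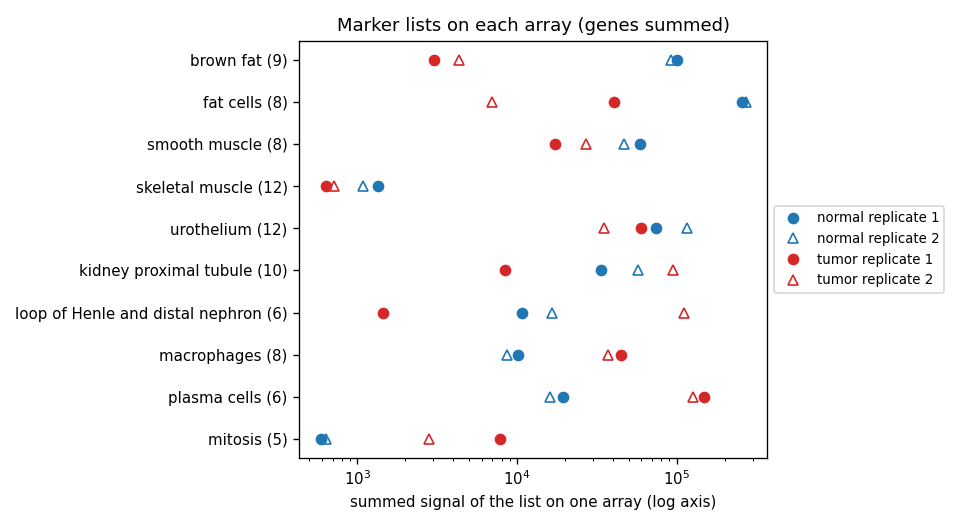
Each row is a list of cell type markers (number of genes in parentheses), and the points give the summed signal of the list on each array, on a log axis. Brown fat and fat cell markers are lower on both tumor arrays, kidney markers are lowest on tumor replicate 1 and highest on tumor replicate 2, and macrophage, plasma cell and mitosis markers are higher on both tumor arrays.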

How the data were processed

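Per the submitters' processing notes, the authors made the deposited table with MAS5, as a linear signal intensity per probe set. The sources used here do not give its version, detection calls or any filter. After trimming 2% of values at both ends, every array had a mean signal of 500, so each signal is relative to the rest of its array. Gene symbols came from the platform annotation, which assigned 1 symbol to 34945 probe sets, several to 932 and none to 9160. Members and gene lists were chosen with earlier results of these data known, and subunit roles were grouped from textbook knowledge after the values were seen.

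The deposited intensity was taken as log2(signal + 16), which understates differences of dim genes. For each of 18193 genes the brightest probe set assigned to it alone was used (by mean log2 value), and the 13046 at or above the 40th percentile (a signal of 54.65) were tested with limma 3.58.1 in R 4.3.3. The test had an intensity trend, was two-sided, and used Benjamini-Hochberg adjustment at 0.05. There were 2 residual and 2.11 prior degrees of freedom. It called 187 genes, 64 higher and 123 lower. An exact permutation test of 2 against 2 arrays cannot go below p = 0.333 and was not used. The code was tested on simulated data. Figures were drawn with matplotlib 3.10.9.

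Every member may be named. Full values are given for the member of each complex with the highest mean, the highest and lowest difference and the smallest p, for isoform partners, for genes whose probe sets disagree in direction, and for others chosen after their values were seen. From each list of other mitochondrial genes the 2 genes with the smallest p and the brightest gene are named, plus factors with a searched core and Ppargc1a. For the lists of cell type markers only part of that choice is named. Some markers outside it are named too, such as Dio2, Otop1, Upk1b, Krt5 and Cdh1. Pseudocounts of 1 and 64 for dim isoform partners and brown fat markers, and the arithmetic mean for the choice of probe sets, were added after seeing the data. Alternatives were the pseudocount, scaling, filter, probe set rule, prior, replicate block and leaving out each array.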

Additional observations from a re-analysis of the deposited data

How the results depend on the processing

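Over 17 alternatives, 674 of 743 values of single members kept their direction and their side of the threshold. A further 65 passed the threshold, all with a tumor array left out, and 4 changed sign. With an array left out, Sdhc ran from −0.93 to 0.040 and Cox6a2 from −0.048 to 0.59, both turning without tumor replicate 1, and Atp5g1 from −0.44 (without tumor replicate 2) to 1.33. Cox7a2l was 0.11 without probe sets of shared probes. The count of members past the test was 0 under every alternative other than leaving out an array, where it ran from 0 to 38. The count over all genes, 187 in the main setting, was 357 over every probe set, 111 with the mean of probe sets, 35 with median centring, 2 without the intensity trend and from 0 to 5502 with an array left out. The labels state no pairing of replicate numbers, and the fit with the replicate block called 0 genes and 0 members. Over 13046 genes, replicate 1 deviations of both groups correlated at 0.0391. The members' median of −1.0 ran from −1.23 to −0.59 with an array left out and was −0.77 with quantile normalization. It was −0.81 with median centring, which moves the median of all genes to 0.22. The number of members lower on both tumor arrays was 33 with quantile normalization, 34 with median centring and 36 to 42 under the others. It was not counted for the fit over every probe set. With 2 arrays a group, their number limits the precision, and without detection calls no signal can be set against background. The causes of these shifts were not tested.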

Other observations

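Some marker lists differed between the groups in the opposite direction to the complexes. All 8 macrophage markers were higher on both tumor arrays, and 4 of them rose by the limma test, with a median difference of 2.07. Over all 13046 genes tested, 29.4% were higher on both tumor arrays and 64 rose by the limma test. C1qb, a complement subunit made by macrophages, read 1108 and 996 in normal ureter and 7385 and 6049 in the tumors (2.65 ± 0.20, limma adjusted p = 0.0402). Csf1r, the receptor on which macrophages depend, read 4415 and 3949 against 17035 and 15523 (1.96 ± 0.19, limma adjusted p = 0.0425), and Mpeg1 rose by 2.26 ± 0.20. Of the 6 plasma cell markers 2 rose, with a list median of 3.31. Igha, the constant region of IgA, read 444 and 463 against 65803 and 69046 (limma adjusted p = 0.00863), and Jchain, which joins IgA into dimers, rose by 5.31 ± 0.22 (limma adjusted p = 0.0288).

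The 5 mitosis markers tested were higher on both tumor arrays, where 29.4% of all genes tested were. Their median was 2.87, and 0 passed the test. Mki67 read 201 and 220 in normal ureter and 2479 and 866 in the tumors, and Cdc20 and Birc5 had differences of 2.87 and 2.91 (limma adjusted p of 0.0986 and 0.114). Mitosis markers were highest on tumor replicate 1, the array on which most members of complexes II to V had their lowest signal. Of 5 skeletal muscle markers tested, 0 passed the test, and the list summed to 1343 and 1087 in normal ureter and 641 and 712 in the tumors.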
